A study of Mus musculus with 9 samples.

Results

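The Id family comprises 4 genes, Id1, Id2, Id3 and Id4, out of 17487 genes with a row in at least 1 of the tables of single-cell RNA sequencing of the neocortex of E18.5 mouse embryos. The genes were taken by symbol, and each of the 9 libraries holds a row for all 4 of them. Each library is 1 embryo. WT libraries are wild-type littermates, and KO libraries are embryos homozygous for an insertion of lacZ and neomycin cassettes before exon 4 of Tcf4, which removes the long protein isoform from all tissues while shorter isoforms may persist, so the KO need not be a full null. The comparison was made between WT2, WT3 and WT4 and KO4 and KO5, 3 libraries against 2. No treatment was given to either group, and all embryos had the same age.

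Id proteins are helix-loop-helix proteins without a DNA-binding domain. They dimerise with E-proteins, the class I bHLH factors TCF3, TCF4 and TCF12, and so keep them from binding DNA together with proneural and neuronal class II bHLH factors. In the developing brain BMP signalling through SMAD factors is a known inducer of Id genes, Id1 and Id3 are known from radial glia, astrocytes and blood vessels, and Id2 is known from postmitotic neurons of the cortex as well.

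The genes lie on 4 chromosomes of GRCm38 in the GENCODE annotation. Id1 (ENSMUSG00000042745) is at chr2:152736251-152737410 on the plus strand, and Id2 (ENSMUSG00000020644) is at chr12:25093799-25097140 on the minus strand. Id3 (ENSMUSG00000007872) is at chr4:136143497-136145755 and Id4 (ENSMUSG00000021379) at chr13:48261228-48266026, both on the plus strand. The 250 bases before the RefSeq transcript start are shown for Id2 and Id3, the genes on which the results turn. Both windows were read 5′ to 3′ along the strand of the gene from RefSeq for GRCm38.p6 and lie inside the longer GENCODE gene models, at chr12:25096093-25096342 (minus strand) and chr4:136143572-136143821 (plus strand). Capitals mark the E-box CANNTG, the letters to which bHLH dimers bind, searched on both strands.
Id2: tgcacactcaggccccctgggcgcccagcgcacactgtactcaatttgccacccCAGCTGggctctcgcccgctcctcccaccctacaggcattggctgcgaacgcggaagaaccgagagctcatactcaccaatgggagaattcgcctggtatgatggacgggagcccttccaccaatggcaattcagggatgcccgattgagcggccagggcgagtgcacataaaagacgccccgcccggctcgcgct
Id3: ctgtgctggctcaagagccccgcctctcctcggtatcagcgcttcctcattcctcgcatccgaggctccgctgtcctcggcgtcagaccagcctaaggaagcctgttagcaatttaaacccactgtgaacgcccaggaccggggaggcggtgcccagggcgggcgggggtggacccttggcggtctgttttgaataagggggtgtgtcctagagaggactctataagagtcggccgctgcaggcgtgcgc
The Id2 window holds 1 E-box, with its first letter 196 bases before the start, and the Id3 window holds none. An E-box occurs in 66.2% of the 32851 RefSeq windows of this length. The window of Id2 also holds 3 copies of ATTGG or its reverse complement CCAAT, a motif present in 33.9% of windows, and that of Id3 holds none.

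Cells were assigned to classes by marker genes that do not include any Id gene. Values are UMIs per 10000 UMIs of a cell, averaged over the cells of a class in a library. A UMI marks a single captured 3′ transcript end, so these values do not depend on transcript length. The cells kept were 1184 in WT2, 1617 in WT3, 6173 in WT4, 4199 in KO4 and 2303 in KO5. Of the cells within the other limits, the limit of 1% haemoglobin UMIs removed 13.9 and 40.4% in KO4 and KO5. In WT2, WT3 and WT4 it removed 0.42, 1.34 and 0.56%. Glutamatergic neurons, the excitatory neurons of the cortex, were present in all 9 libraries. A total of 5 classes had at least 20 cells in each of the 5 libraries compared and were tested. They are all glutamatergic neurons (670, 1069, 3255, 2825 and 1622 cells, in the order WT2, WT3, WT4, KO4, KO5), the deep layer type neurons and the other glutamatergic neurons among them, cycling progenitors, and non-cycling radial glia and astrocytes (83, 93, 486, 363 and 222 cells). Newborn neurons, the remaining glutamatergic cells, were too few in KO5 to be tested.

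Several libraries stood apart before any Id gene was considered. Tcf4, the targeted gene, was at 12.2, 12.6 and 12.2 UMIs per 10000 over all kept cells of WT2, WT3 and WT4, and at 9.29 and 7.59 in KO4 and KO5. It was at 7.20 in the library labelled WT5 and at 16.7 in the library labelled KO1, each against its label, and at 4.65 in the small library labelled WT1. Transcripts of Actb averaged 170.1 to 172.0 UMIs per 10000 in KO4 and KO5 and 197 in the library labelled WT5, against 40.5 to 64.3 in WT2, WT3 and WT4. Haemoglobin transcripts averaged 32.0 and 71.9 in KO4 and KO5 and 46.2 in the library labelled WT5, against 5.40 to 8.51. The libraries labelled WT5, KO1, KO2 and WT1 were left out of the main comparison, and their values are given where they touch a result. Without any gate, 2 clusters led by haemoglobin and Spock1 transcripts, which could not be named, took 1809 and 1098 of the 4199 cells of KO4, 1192 and 827 of the 2303 cells of KO5 and 1907 and 1383 of the 3630 cells of the library labelled WT5, but 197 and 140 of the 6173 cells of WT4. Any pair of libraries shared at most 39 cell barcodes.

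In WT cortex the Id genes differed in the classes where each was highest. Among the neural classes plotted, Id2 was highest in glutamatergic neurons, and Id1 and Id3 were highest in radial glia and cycling progenitors. Id4 was near the limit of detection everywhere. Id2 was the most abundant of the family in radial glia and astrocytes too, with a mean of 6.52 UMIs per 10000 against 4.20 for Id3 and 1.34 for Id1. In cycling progenitors the means were 4.86, 2.57 and 0.96 in the same order. On the log2 scale of UMIs per 10000 plus 1, the difference of radial glia and astrocytes minus glutamatergic neurons in WT was 1.14 ± 0.06 (SE) for Id1, 2.16 ± 0.11 for Id3, -0.81 ± 0.07 for Id2 and 0.16 ± 0.04 for Id4. All 4 differences passed the limma test, with adjusted p of 3.58e-10, 9.73e-09, 2.42e-07 and 0.00325 in the same order. Of all genes tested between these classes 25.9% did so.

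**Figure D1:**
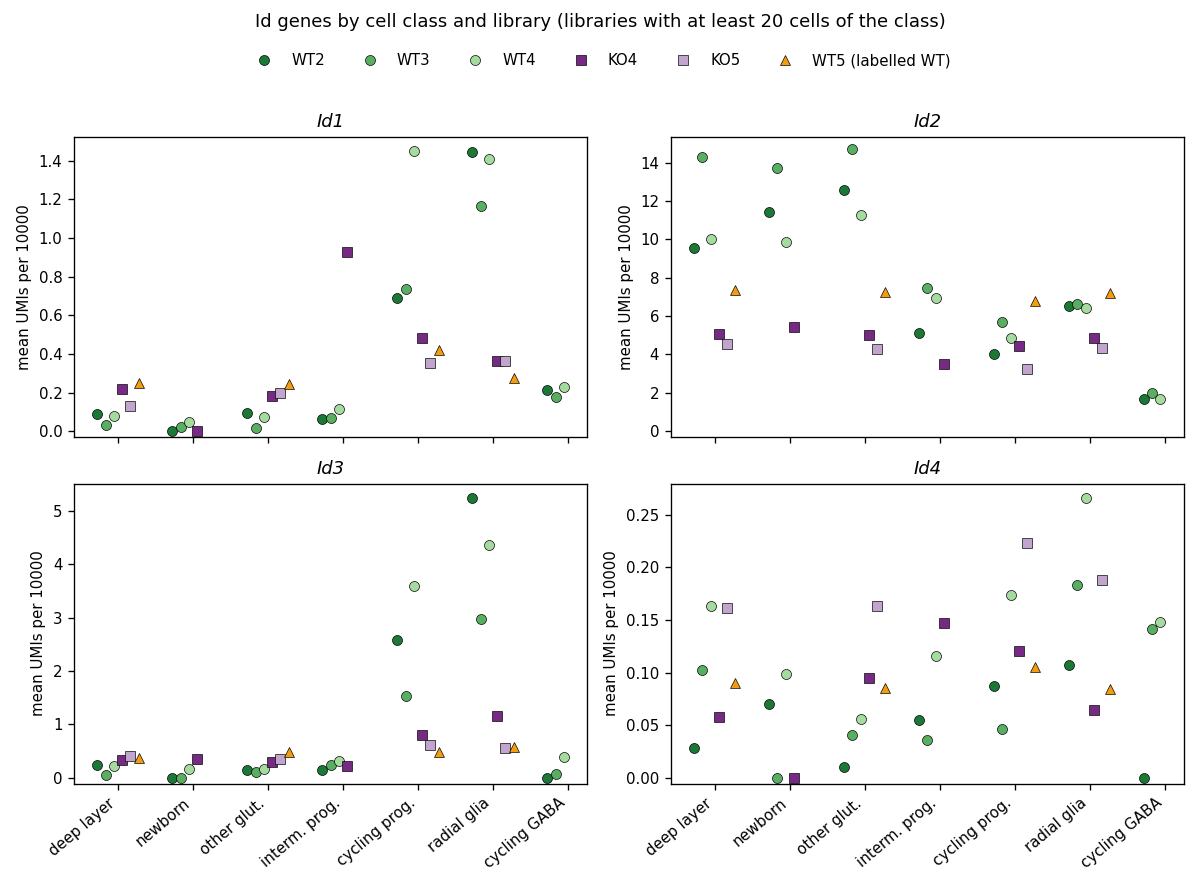
Mean UMIs per 10000 (y axis) of each Id gene by gated cell class (x axis), 1 point per library with at least 20 cells of the class: circles are WT2, WT3 and WT4, squares KO4 and KO5, triangles the library labelled WT5. In WT2, WT3 and WT4, Id2 is highest in other glutamatergic neurons (11.3 to 14.7) and Id3 in radial glia (2.98 to 5.25), while KO4, KO5 and the library labelled WT5 keep Id2 between 3.22 and 7.37 in the classes tested.

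Id2, whose transcripts were the most abundant of the family in these libraries, was at 12.6, 14.7 and 11.3 UMIs per 10000 in other glutamatergic neurons of WT2, WT3 and WT4. Newborn neurons followed with a mean of 11.7 ± 1.96 (SD, n = 3) and deep layer type neurons with 11.3 ± 2.61, and the ranges of neighbours in this order overlapped. Id2 was lower, without overlap, in radial glia and astrocytes at 6.52 ± 0.10. Intermediate progenitors, the transient amplifying cells of the neuronal lineage, were at 6.51 ± 1.24, and cycling progenitors at 4.86 ± 0.83. Cycling GABAergic progenitors had the lowest Id2 of the 7 classes plotted, at 1.67, 1.99 and 1.66, again without overlap with the class above them.

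Id3 was at 5.25, 2.98 and 4.37 UMIs per 10000 in radial glia and astrocytes of WT2, WT3 and WT4. Cycling progenitors came next with 2.58, 1.53 and 3.60, and their range overlapped with that of radial glia. The other 5 neural classes plotted, those with 20 cells in each WT library, lay below, at means of 0.05 to 0.23. Among these 7 classes Id1 was highest in the same ones, with 1.45, 1.16 and 1.41 in radial glia and 0.69, 0.73 and 1.45 in cycling progenitors, and with means of 0.02 to 0.21 in the other 5. Id4 averaged 0.19 ± 0.08 in radial glia and 0.04 to 0.10 in the other 6 of these classes, and the ranges of all neighbouring classes overlapped.

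Cells outside these classes held Id1 and Id3 as well. Cells with markers of more than 1 class had WT means of 1.67 for Id3 and 1.48 for Id1, and cells in no gate 0.37 and 0.16. Oligodendrocyte lineage cells had 0.93 of Id3 in the 129 cells of WT4, of which 17.8% held a UMI once thinned, and 0.27 in the 24 cells of WT3. Both genes were higher in endothelial cells, the cells lining blood vessels, than in any class above. Id1 was at 9.07, 12.4 and 11.5 UMIs per 10000 in the 6, 7 and 12 endothelial cells of WT2, WT3 and WT4, from 27, 32 and 72 UMIs. Id3 was at 7.52, 7.39 and 8.46 in the same cells. These cells are few, and the values carry the counting error of their UMIs. A single meningeal cell of WT4 held 40 UMIs of Id3. Cajal-Retzius type cells, the early marginal zone neurons, held 1.53, 1.26 and 2.28 UMIs per 10000 of Id2 and a total of 1 UMI of Id1 in the 3 libraries.

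The share of cells with a UMI differed between classes in the same way once each cell was thinned to 1800 UMIs. In WT2, WT3 and WT4, 77.5, 80.6 and 68.7% of glutamatergic neurons held a UMI of Id2. In radial glia and astrocytes the shares were 54.2, 62.4 and 54.1%, and in cycling GABAergic progenitors 18.6, 36.1 and 25.9%. For Id3, 27.7, 21.5 and 22.4% of radial glia and astrocytes held a UMI, against 2.84, 1.78 and 2.70% of glutamatergic neurons. How much of the share in neurons came from free RNA was not tested. For Id1 the shares were 18.1, 11.8 and 14.2% of radial glia against 1.64, 0.468 and 1.51% of glutamatergic neurons. For Id4 they were 2.41, 4.30 and 4.32% of radial glia against 0.149, 0.842 and 1.90%. Before thinning, the median depth of glutamatergic neurons was 2413, 3512 and 4551 UMIs and that of radial glia 2746, 4222 and 4773.

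Id1 and Id3 occurred together in cells of the radial glia gate in WT. Among cells with a UMI of Id1, 68.2, 68.4 and 73.8% in WT2, WT3 and WT4 also held Id3. Among the cells without Id1, 27.9, 21.6 and 17.6% held Id3. Cells differed in depth, which also makes genes appear together, and the part of depth was not tested. In KO4 and KO5 the share with Id3 was 40.6 and 27.8% of the 32 and 18 cells with Id1. In the library labelled WT5 it was 12.5% of 16 cells, beside 12.6% of the cells without Id1.

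Over 29 values, each a class in 1 of WT2, WT3 and WT4 with at least 20 cells, the profile of Id1 was most like that of Id3 among 3589 genes (Pearson r 0.97). The next were Mlc1, Mfge8, Tnc and Ttyh1, at r of 0.94 to 0.96, of which Mfge8 and Ttyh1 are markers of the radial glia gate. Among the genes most like Id3 were Id1, Tnc, Ttyh1 and Mlc1. Id2 was most like Neurod6, a marker of the glutamatergic gate, at 0.97, followed by Zbtb18, Rabgap1l, Neurod2 and Fam84a at 0.93 to 0.96. NEUROD2 and NEUROD6 are neuronal class II bHLH factors. Id2 had r of -0.05 with Id1 and 0.03 with Id3. Id4 reached 1 UMI per 10000 at none of these values, and its closest genes, among them Rxrg, Syt6, Isl1 and Slc32a1, had r of only 0.72 to 0.77. These values share libraries and classes, so the coefficients describe the profiles and no p is given.

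In KO4 and KO5, Id2 was lower than in WT in every glutamatergic class tested. In all glutamatergic neurons it was at 11.8, 14.5 and 10.5 UMIs per 10000 in WT2, WT3 and WT4 and at 5.03 and 4.37 in KO4 and KO5. Both KO libraries lay below all 3 WT libraries, a 2.61-fold lower mean. Id2 fell by 1.21 ± 0.15 (SE) on the log2 scale (limma, adjusted p = 0.00588), and it was among the 0.386% of genes called lower in this class. The call was lost without WT2 (adjusted p = 0.0526) or KO5 (0.0882), and also in cells low in Actb, under a lower haemoglobin limit and in the clusters taken in place of gates, described with the other choices of cells. The groups did not overlap with KO lower for 38.3% of genes, and the exact permutation test over 3 against 2 libraries gave p = 0.1 for Id2, the smallest it can give.

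Id2 fell in both glutamatergic classes that could be tested alone. In other glutamatergic neurons Id2 went from 12.8 ± 1.73 (SD, n = 3) to 5.002 and 4.28, a log2 change of -1.29 ± 0.14 (limma, adjusted p = 0.0013), and this call was made without each library in turn but not in cells low in Actb (0.245) or under the lower haemoglobin limit (0.129). In deep layer type neurons it went from 11.3 ± 2.61 to 5.08 and 4.54, a change of -1.06 ± 0.17 (limma, adjusted p = 0.0088), and the call was lost without KO5 (adjusted p = 0.139), in cells low in Actb (0.235) and under the lower haemoglobin limit (0.429). In the other glutamatergic class 0.58% of genes were called lower and in the deep layer class 0.214%. Both KO libraries lay below all WT libraries in either class, as they did for 33.6% and 30.6% of genes in the same order.

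In progenitors the fall of Id2 did not pass the test. In radial glia and astrocytes Id2 was at 6.50, 6.63 and 6.43 in the 3 WT libraries, and KO4 and KO5 had 4.86 and 4.34, a change of -0.43 ± 0.15 (limma, adjusted p = 0.118). The groups did not overlap, as held with KO lower for 29.4% of genes in this class, and the call was made without WT4 (adjusted p = 0.0444). In cycling progenitors the groups overlapped, and the change was -0.28 ± 0.17 (adjusted p = 0.313). The change of Id2 in radial glia differed from that in glutamatergic neurons by 0.79 ± 0.12 (limma, adjusted p = 0.000375), and the change in cycling progenitors by 0.93 ± 0.10 (adjusted p = 6.93e-06). Such differences of change were called for 7.01% and 10.9% of genes.

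The share of glutamatergic neurons with a UMI of Id2, at 1800 UMIs per cell, was 57.2 and 54.4% in KO4 and KO5, against 68.7 to 80.6% in WT. In KO4, however, 53.8% of 26 microglia and 61.9% of 21 endothelial cells held Id2 too, against 9.09% of 22 and 25.0% of 12 in WT4, and 30.8% of 13 endothelial cells did in KO5. The median depth before thinning was 2250 UMIs in glutamatergic neurons of KO4, 2119 in its microglia and 2225 in its endothelial cells. Microglia, the immune cells of the brain, had a mean of 5.89 UMIs per 10000 of Id2 in KO4, above the 5.03 of its neurons, and 1.92 in WT4. The share in neurons of KO4 thus lay between those of its microglia and endothelial cells, while that of KO5 lay above the share of its endothelial cells. From which cells these UMIs came was not tested, so the shares are not read as expression.

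**Figure D2:**
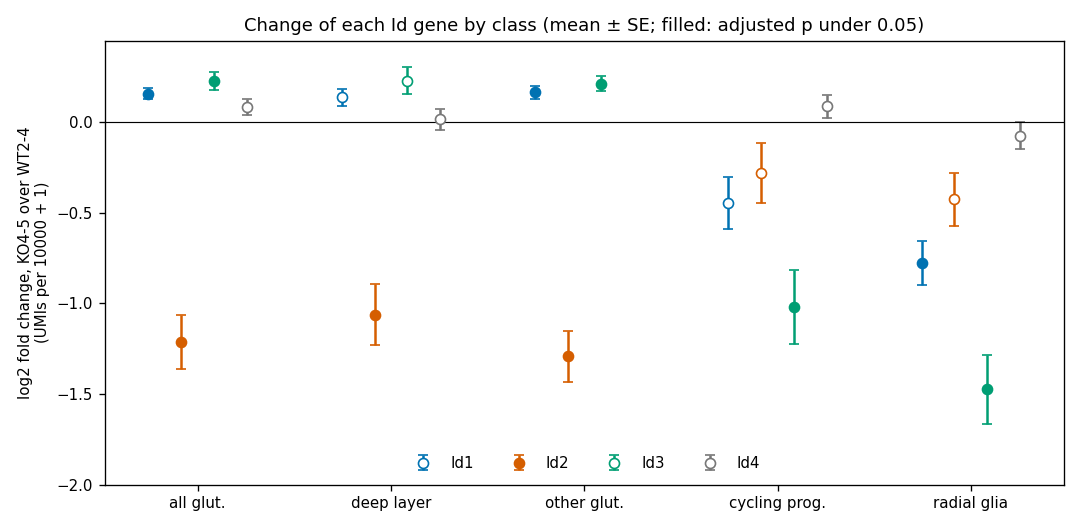
Log2 fold change of each Id gene (y axis, KO4 and KO5 over WT2, WT3 and WT4, on UMIs per 10000 plus 1) in the 5 classes tested (x axis), as mean ± SE from limma; filled points passed an adjusted p of 0.05, and Id4 is missing where it was too low to test. Id2 lies between -1.29 and -1.06 in the 3 neuron groups, and Id3 is at -1.47 in radial glia and -1.02 in cycling progenitors but slightly above 0 in neurons.

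In the cells that passed the radial glia gate, the genes that fell were Id3 and Id1. In KO4 and KO5 these cells held as many glutamatergic marker UMIs as the glutamatergic neurons did, at medians of 5 and 4. They are therefore named by the gate only. Id3 was at 5.25, 2.98 and 4.37 UMIs per 10000 in WT2, WT3 and WT4 and at 1.17 and 0.57 in KO4 and KO5, a 4.85-fold lower mean. It fell by 1.47 ± 0.19 on the log2 scale (limma, adjusted p = 0.000311). Id1 was at 1.45, 1.16 and 1.41 in WT and at 0.365 and 0.361 in KO, a 3.69-fold lower mean, and fell by 0.78 ± 0.12 (adjusted p = 0.000999). Neither gene overlapped between the groups, as held with KO lower for 29.4% of genes in this class. Both calls were made without each library in turn but were lost without a filter on low values. With a haemoglobin limit of 0.1% KO4 was the sole KO library. Its Id3 was then at 2.81, against 2.92 to 5.46 in WT, and its Id1 at 0.62, against 1.16 to 1.54. In this class 3.04% of genes were called lower. In the 12 radial glia of KO4 that were low in Actb, described with the other choices of cells, neither gene was below the WT libraries. Id4 was low in all 5 libraries and did not pass, at -0.07 ± 0.08 (adjusted p = 0.615).

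Cycling progenitors gave a smaller fall of Id3, from 2.58, 1.53 and 3.60 to 0.81 and 0.61, a log2 change of -1.02 ± 0.20 (limma, adjusted p = 0.0134) in a class in which 4.8% of genes were called lower. The call was lost without WT2 (adjusted p = 0.0655) or KO5 (0.179). Id1 was at 0.69, 0.73 and 1.45 in WT and 0.48 and 0.35 in KO and did not pass (-0.45 ± 0.14, adjusted p = 0.0667). Neither gene overlapped between the groups, and 30.8% of genes did not overlap with KO lower. In the 21 and 13 endothelial cells of KO4 and KO5, Id1 was at 2.04 and 2.29 and Id3 at 1.24 and 2.33, below all WT values given above. Id2 lay the other way in these cells, at 0.51, 2.58 and 1.89 in WT and 4.72 and 2.93 in KO4 and KO5. With n = 3 and 2 the exact permutation p was 0.1 for Id1 and Id3, the smallest possible, and 0.2 for Id2, and no test across genes was made in so few cells. No share over all genes therefore stands beside these values. The markers of the endothelial gate were also lower in endothelial cells of KO4 and KO5, as given with the other markers below.

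In glutamatergic neurons, where both genes are scarce, the direction was opposite in the main fit. Id3 was at 0.16, 0.08 and 0.19 in the 3 WT libraries, KO4 and KO5 had 0.31 and 0.37, and it rose by 0.23 ± 0.05 on the log2 scale (limma, adjusted p = 0.0478) among 2.33% of genes called higher. The call was lost without WT2 (adjusted p = 0.132), WT3 (0.0681), KO4 (0.144) or KO5 (0.582). Id1 was at 0.09, 0.02 and 0.07 in WT and 0.19 and 0.17 in KO and rose by 0.16 ± 0.03 (adjusted p = 0.0448). Its call was lost without WT2 (0.0848) or WT3 (0.0616), and without KO4 or KO5 it was too low to be tested. Both calls were also lost with a pseudocount of 0.25 (adjusted p = 0.057 and 0.0583). Both KO libraries lay above all WT libraries for Id1 and Id3, as for 11.1% of genes. Id4 did not pass, at 0.08 ± 0.04 (adjusted p = 0.249). In neurons low in Actb, Id1 was at 0 in KO4 and KO5 (93 and 23 cells), against 0.02 to 0.10 in WT. Id3 there was at 0.26 and 0.60, against 0.08 to 0.19. In the clusters, Id1 was at 0.07 and 0 against 0.03 to 0.08, and Id3 at 0.12 and 0.29 against 0.08 to 0.20. At a haemoglobin limit of 0.1%, KO4 had 0.17 of Id1 against 0.02 to 0.09, and 0.16 of Id3 against 0.08 to 0.17. In other glutamatergic neurons alone the changes were 0.16 ± 0.04 for Id1 (adjusted p = 0.0398) and 0.21 ± 0.04 for Id3 (0.0241), where 2.45% of genes were called higher and 11.4% did not overlap with KO higher. The call of Id1 there was lost without WT2 (0.0762) or WT3 (0.06), and that of Id3 without WT2 (0.097), KO4 (0.0912) or KO5 (0.394).

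The fold changes of Id1 and Id3 in radial glia and in glutamatergic neurons had opposite signs, and the difference itself was tested. The difference between radial glia and glutamatergic neurons was smaller in KO by 0.93 ± 0.09 for Id1 (limma, adjusted p = 1.04e-05) and by 1.70 ± 0.17 for Id3 (adjusted p = 5.4e-05). For Id4 the corresponding value was -0.16 ± 0.06 (adjusted p = 0.138). Between cycling progenitors and glutamatergic neurons the differences were smaller by 0.60 ± 0.14 for Id1 (adjusted p = 0.0212) and 1.25 ± 0.20 for Id3 (adjusted p = 0.00921). Such differences were called for 7.01% of genes with radial glia and 10.9% with cycling progenitors. These values are from all gated cells, and Id1 and Id3 of radial glia under other choices of cells are given below.

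Within KO4 and KO5 the Id genes differed less between classes than in WT. Over the 4 exclusive classes tested, Id2 ranged from 4.43 to 5.08 UMIs per 10000 in KO4 and from 3.22 to 4.54 in KO5, against 4.03 to 12.6 in WT2. The library labelled WT5 had the narrowest range of these libraries, 6.79 to 7.37. The highest class mean of Id3 was 4.07- and 1.76-fold the lowest in KO4 and KO5, against 36.7, 50.5 and 27.6 in WT2, WT3 and WT4, and that of Id1 2.64- and 2.78-fold, against 16.0, 71.5 and 19.3. Summed Id1 and Id3 were 26.9-, 39.5- and 22.0-fold higher in radial glia than in glutamatergic neurons in WT2, WT3 and WT4, and 3.07- and 1.70-fold higher in KO4 and KO5. In the library labelled WT5 this ratio was 1.26.

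Other markers moved in the same way in these libraries. A list of 8 radial glia markers that no gate used (Dbi, Ednrb, Gja1, Hes5, Mt3, Ptprz1, Slc1a2 and Vim) summed to 116, 115 and 69.3 UMIs per 10000 in the radial glia gate of WT2, WT3 and WT4 and to 29.0 and 28.6 in KO4 and KO5. All 8 were higher in radial glia than in glutamatergic neurons in WT2, WT3, WT4, KO4 and the library labelled WT5, and 7 of 8 in KO5, and none was at 0 in the radial glia gate of these 6 libraries. The sums were 13.7-, 16.4- and 8.59-fold higher in radial glia than in glutamatergic neurons in WT, 2.03- and 1.74-fold in KO4 and KO5, and 1.39-fold in the library labelled WT5. In glutamatergic neurons themselves the same list summed to 8.44, 6.98 and 8.07 in WT and to 14.3 and 16.4 in KO4 and KO5. A list of 7 neuronal markers outside the gates was 2.38-, 2.44- and 1.57-fold higher in glutamatergic neurons than in radial glia in WT, and 1.15- and 1.13-fold in KO4 and KO5. Gated radial glia held a median of 34, 44 and 11 UMIs of the 7 gate markers in WT2, WT3 and WT4, and 7 in both KO4 and KO5. Exactly 3 of these markers, the fewest that pass, were held by 30.1, 32.3 and 48.6% in WT and 71.9 and 72.5% in KO. Their median of glutamatergic gate marker UMIs was 1, 2 and 4 in WT, where glutamatergic neurons had 6, 8 and 8. In KO4 and KO5 it was 5 and 4 in both classes. Of the glutamatergic neurons, 9.40, 4.96 and 6.94% held exactly 2 UMIs of the 6 gate markers, the fewest that pass, in WT, and 10.6 and 14.9% in KO4 and KO5. The endothelial gate list summed to 102.6 to 149 UMIs per 10000 in endothelial cells of WT and to 26.4 and 29.8 in KO4 and KO5. The part of this loss of contrast between classes in the changes of the Id genes was not tested beyond the values that follow.

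**Figure D3:**
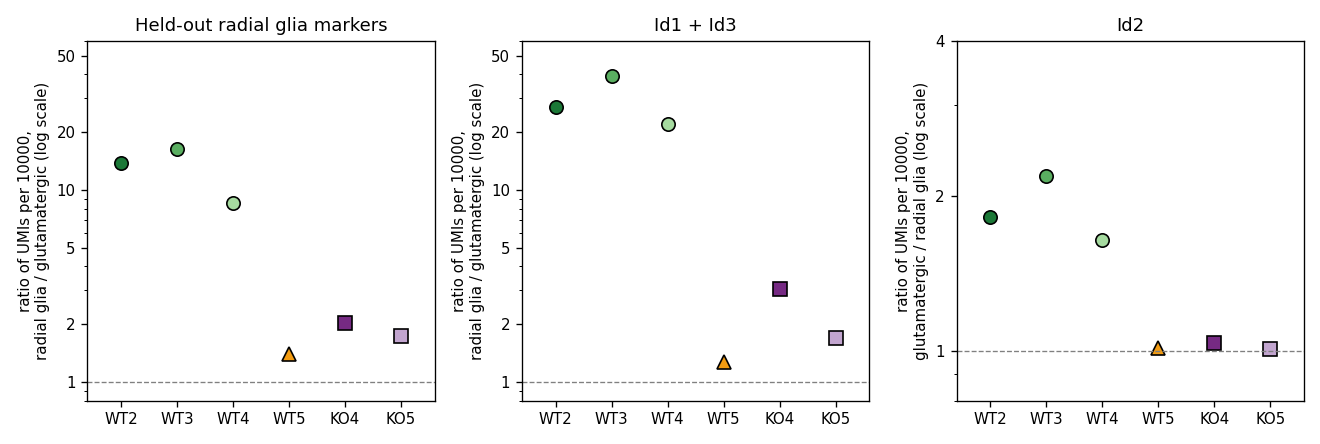
Ratio between gated classes within each library (y axes, log scale, 1 point per library on the x axis) for 8 radial glia markers used by no gate, for the sum of Id1 and Id3, and for Id2. All 3 ratios are between 1.01 and 3.07 in KO4, KO5 and the library labelled WT5 and each is higher in WT2, WT3 and WT4, where Id1 and Id3 reach 22.0 to 39.5.

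One way to look at this, chosen after the data had been seen, was to keep only cells with fewer than 100 UMIs of Actb per 10000. It kept 88.8, 79.5 and 90.5% of glutamatergic neurons in WT2, WT3 and WT4, but 3.29% in KO4 and 1.42% in KO5. In these cells Id2 in glutamatergic neurons was at 11.8, 14.8 and 10.5 in WT, at 6.14 in the 93 cells of KO4 and at 3.14 in the 23 cells of KO5. The groups did not overlap, as held with KO lower for 38.3% of genes over all gated cells of this class. The change of -1.29 ± 0.26 did not pass (limma, adjusted p = 0.28), and 1 gene in all was called, with 1417 at an unadjusted p under 0.05. The 34 such cells of the library labelled WT5 had 8.60, between the groups.

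Id1 and Id3 in radial glia were not lower in KO4 under this choice. The 12 such cells of KO4 had 7.98 UMIs per 10000 of Id3 and 1.51 of Id1, against 3.33 to 5.09 and 1.35 to 1.54 in WT. These values come from 1 library and few cells. The fit with KO4 as the sole KO library called 2192 of 8801 genes, against 386 with all 5 libraries and all gated cells, so its p is not used. KO5 had no such cell in the radial glia gate. With a haemoglobin limit of 0.1% in place of 1%, KO4 alone was left as well, with 64 radial glia and 468 glutamatergic neurons. The fit therefore had 1 KO library, whose spread was assumed to be like that of the others. Id2 was then at 6.49 in glutamatergic neurons of KO4, against 10.8 to 15.5 in WT, and did not pass (-0.88 ± 0.24, limma, adjusted p = 0.21). Id3 in radial glia, at 2.81 in KO4, did not pass either (-0.43 ± 0.27, adjusted p = 0.552), nor did Id1 (-0.55 ± 0.21, adjusted p = 0.372).

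Clusters of cells were used in place of the gates, and the glutamatergic ones are given by number. Cluster 2, the largest neuronal one with 2822 cells, was led by Fam19a2, Dok5 and Dab1 and had 2 raised glutamatergic markers, too few for a name. Its Id2 was at 14.0, 16.98 and 13.2 UMIs per 10000 in WT2, WT3 and WT4 and at 7.18 and 6.68 in KO4 and KO5. In cluster 3, led by Nrp1, Sema3c and Cntn2, Id2 was at 11.2, 14.9 and 10.6 in WT and at 7.08 and 6.59 in KO. Cluster 4 was led by Sstr2, Eomes and Mfap4, and Eomes is a marker of intermediate progenitors, so it is not called a neuron class. Id2 in it was at 8.49, 10.1 and 8.94 in WT and at 5.19 and 5.43 in KO. The groups did not overlap in any of the 3. The share of all genes that did so was not taken in the clusters, and in the gated glutamatergic classes it was 30.6 to 38.3% with KO lower. The rule of 3 raised markers took clusters 3 and 4 only, with 309 and 47 cells in KO4 and KO5, and there the change of Id2 was -0.70 ± 0.16 on the log2 scale and did not pass (limma, adjusted p = 0.0944). In the library labelled WT5, Id2 was at 10.3, 12.05 and 8.55 in clusters 2, 3 and 4, from 70, 35 and 18 cells. In the radial glia cluster, Id3 was at 6.68, 4.18 and 9.48 in WT and 1.96 and 1.15 in KO4 and KO5, and Id1 at 1.98, 1.58 and 2.97 against 0.85 and 0.86. The changes were -1.57 ± 0.26 (adjusted p = 0.00603) and -0.75 ± 0.17 (adjusted p = 0.0074). The 8 radial glia markers summed to 142 to 151 in this cluster in WT and to 84.1 and 86.2 in KO4 and KO5, so they were lower in KO there as well.

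**Figure D4:**
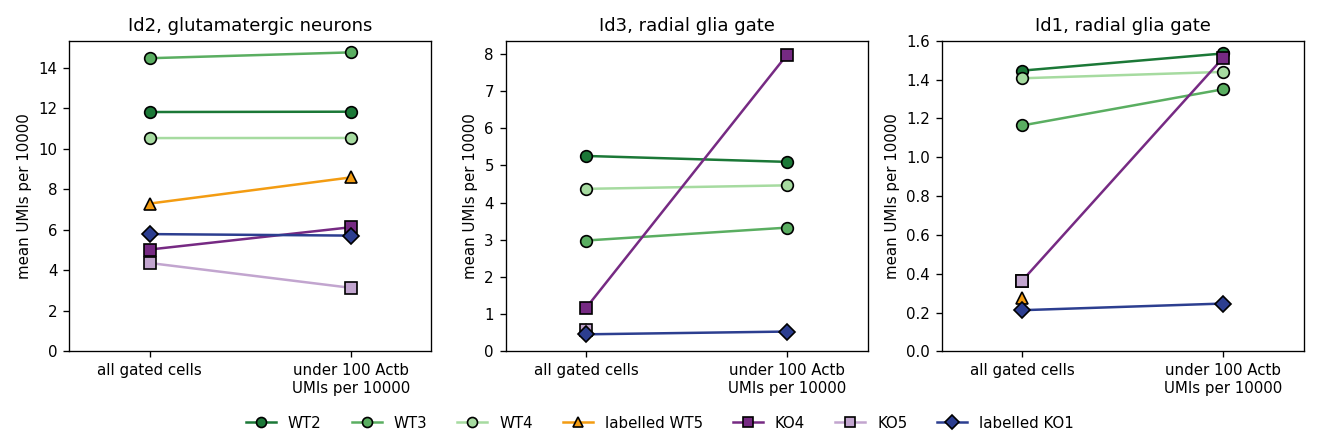
Mean UMIs per 10000 (y axis) of Id2 in glutamatergic neurons and of Id3 and Id1 in the radial glia gate, over all gated cells and over cells with fewer than 100 Actb UMIs per 10000 (x axis), with a line for each library that has at least 10 such cells. Id2 of KO4 and KO5 stays below WT at 6.14 and 3.14, while Id3 and Id1 of KO4 are at 7.98 and 1.51, from 12 cells.

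The libraries left out of the comparison were measured in the same classes. The library labelled WT5 had 7.31 UMIs per 10000 of Id2 in glutamatergic neurons and 0.28 and 0.58 of Id1 and Id3 in radial glia, the last within the range of KO4 and KO5. The library labelled KO1, whose Actb (49.9) was within the range of WT2, WT3 and WT4, had 5.80 of Id2 in 116 glutamatergic neurons, and 0.21 of Id1 and 0.46 of Id3 in 36 radial glia, from 2 and 5 UMIs. All 3 values lie below those of WT2, WT3 and WT4, and its 8 markers of radial glia summed to 97.5, within the WT range, although Hes5 among them was at 0.11. Tcf4 in the same glutamatergic neurons of that library was at 19.6, above all WT libraries. The library labelled WT1 had 3.90 of Id2 in 48 glutamatergic neurons, below KO4 and KO5, and 2.21 of Id3 in 28 radial glia. The library labelled KO2 had 1.03 of Id3 in 26 radial glia, within the range of KO4 and KO5. With the library labelled WT5 added to WT, the change of Id2 in glutamatergic neurons was -1.05 and that of Id3 in radial glia -1.05, and no gene passed in any of the 5 classes by limma, with 305 to 433 genes per class at an unadjusted p under 0.05.

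The partners of the Id proteins were examined in the same classes. Tcf4 was at 14.1, 14.2 and 13.7 UMIs per 10000 in glutamatergic neurons of WT2, WT3 and WT4 and at 9.54 and 7.55 in KO4 and KO5, a fall of 0.66 ± 0.13 on the log2 scale (limma, adjusted p = 0.0418). The call of Tcf4 was made by limma and DESeq2 but not by edgeR. Tcf4 did not pass in radial glia (-0.12 ± 0.17, adjusted p = 0.713). Tcf3 fell in radial glia, from 1.02, 1.23 and 0.70 to 0.39 and 0.34 (-0.53 ± 0.13, adjusted p = 0.0246), and in cycling progenitors (-0.58 ± 0.12, adjusted p = 0.00751), where edgeR and DESeq2 called it too, while in radial glia neither did. Tcf12 was called in none of the 5 classes, with changes of -0.33 to -0.12. The summed Id transcripts were 0.789, 0.932 and 0.738 of the summed E-protein transcripts in glutamatergic neurons of the 3 WT libraries, against 0.538 and 0.603 in KO4 and KO5. In radial glia the ratio was 1.25, 1.08 and 1.01 in WT and 0.617 and 0.659 in KO. Neither set of ratios overlapped (exact permutation p = 0.1 for both, the smallest possible). Single genes did so with KO lower for 38.3% in glutamatergic neurons and 29.4% in radial glia. The ratios contain the Id values given above and are not a separate result. In the library labelled WT5 the ratio was 1.01 and 0.956.

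The genes around the Id family were described from lists. Of 10 class II bHLH factors 5 were tested by limma in all glutamatergic neurons and none was called, with 4 at an unadjusted p under 0.05, while edgeR called Olig1 and DESeq2 called Neurod1, Olig1 and Olig2. Olig1, an oligodendrocyte lineage factor and a marker of another gate, rose in other glutamatergic neurons from 0.19, 0.08 and 0.13 to 0.36 and 0.28 (0.22 ± 0.05, limma, adjusted p = 0.0449). It fell in radial glia from 1.72, 1.47 and 1.31 to 0.50 and 0.27 (-0.86 ± 0.13, limma, adjusted p = 0.000858), the 1 call among the 6 members tested there, in a class with 3.04% of all genes called lower. Of the 6 Hes and Hey factors, 4 were tested in radial glia, and Hes5 and Hey1 fell, beside the same 3.04%. Hes5, a Notch target that represses proneural genes, went from 4.402, 3.14 and 3.64 to 0.86 and 0.40 (-1.54 ± 0.16, adjusted p = 3.67e-05), and it rose in glutamatergic neurons from 0.10, 0.09 and 0.15 to 0.27 and 0.33 (0.22 ± 0.04, adjusted p = 0.0214). Hes1 rose there too (0.18 ± 0.03, adjusted p = 0.0269), so that 2 of the 3 tested did, beside 2.33% of all genes. Hes5 is also 1 of the 8 radial glia markers summed above. In radial glia low in Actb it was at 4.02 in the 12 cells of KO4, against 3.54 to 4.58 in WT. At a haemoglobin limit of 0.1% it was at 1.45 in KO4, against 3.19 to 4.27. In glutamatergic neurons low in Actb it was at 0.22 and 0 in KO4 and KO5, against 0.10 to 0.15 in WT. In cycling progenitors Hes5, Hes6 and Hey1 fell by limma, 3 of the 4 tested, beside 4.8% of all genes. In this class and in radial glia, edgeR called Hes5 and Hey1, and DESeq2 called Hes5 only.

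Few genes of the BMP pathway were abundant enough to test. Of 6 BMP receptors 5 were tested in radial glia, and Bmpr1a, a type I receptor, fell from 0.89, 0.82 and 0.44 to 0.23 and 0.07 (-0.57 ± 0.12, limma, adjusted p = 0.0122). It fell in cycling progenitors too (-0.29 ± 0.09, limma, adjusted p = 0.0462), where neither edgeR nor DESeq2 called a BMP receptor. Of all genes, 3.04% were called lower in radial glia and 4.8% in cycling progenitors. Of 6 SMAD factors 3 were tested by limma in each class and none was called, with 1 at an unadjusted p under 0.05 in each of all glutamatergic neurons, deep layer type neurons and cycling progenitors. Neither edgeR nor DESeq2 called any. Of 7 BMP ligands only Gdf11 was tested by limma. It rose in all glutamatergic neurons from 0.05, 0.05 and 0.07 to 0.16 and 0.14 (limma, adjusted p = 0.0397), beside 2.33% of all genes called higher. No BMP inhibitor was called among the 2 to 4 of 9 tested by limma in each class, with 0 at an unadjusted p under 0.05, nor by edgeR or DESeq2, with at most 3. The median change of the Id family was 0.12 over the 4 members tested in all glutamatergic neurons and -0.60 over 4 in radial glia, against -0.04 and -0.05 over all genes.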

How the data were processed

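Single-cell suspensions of E18.5 neocortex were sequenced with 10x Chromium 3′ v2 chemistry, 1 library per embryo. Per the methods and the submitters' processing notes, the authors mapped reads to mm10 (10X Reference 2.1.0, Ensembl 84) with Cell Ranger (2.1.1 in the methods, 2.1.0 in the notes) and used Seurat 2.3.4 in R 3.6.0. Of the deposited tables, 4 hold whole UMI counts (WT4, WT5, KO4, KO5) and 5 hold the natural log of 1 plus UMIs per 10000, from which whole UMIs were recovered for 100.0% of values within 1e-06. Deposited libraries held 348105 to 29767293 UMIs.

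Cells with 1000 to 5000 genes, 1800 to 10000 UMIs, under 6% mitochondrial and at most 1% haemoglobin UMIs were kept, and no doublet caller was run. Gates took at least 3 UMIs of 2 or more genes of a marker list (radial glia 4 UMIs of 3 genes, Eomes 2 UMIs, glutamatergic 2 UMIs). Mean UMIs per 10000 per library plus a pseudocount of 1 were log2 transformed and tested with limma 3.58.1 (trend, robust, 2-sided) over all genes at 0.1 or more in at least 2 libraries, with Benjamini-Hochberg adjustment and calls below 0.05. On this scale fold changes of low genes are understated. The p-values measure the spread between libraries, and counting intervals cover counting error only. Alternatives used edgeR 4.0.16 and DESeq2 1.42.0 on summed UMIs in R 4.3.3, another pseudocount, filter, library set, depth and haemoglobin limit, and Leiden clusters (leidenalg 0.10.2). Single values were compared with exact permutation tests (scipy 1.17.1). On simulated counts of 200 genes changed by 1 on the log2 scale, limma recovered 38% in glutamatergic neurons and 13% in radial glia.

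The Id genes, marker lists and pathway lists were chosen with earlier results of these data known. Named genes were the Id genes, the E-proteins, from other lists the called members with at most the 3 largest changes per class, and the 5 genes most like each Id gene. The low-Actb choice was added after the data had been seen, and so was the class of all glutamatergic neurons (newborn, deep layer type and other), which takes the place of a planned class that needed an item not reported here. Comparisons of changes with interneurons and striatal type neurons were not made, since KO4 and KO5 held too few of these cells.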

Additional observations from a re-analysis of the deposited data

Results flagged for a closer look

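The change between genotypes differed between cell classes for 3 of the Id genes, by a limma test of the difference itself over all genes. The KO minus WT change in radial glia and astrocytes, less that in glutamatergic neurons, was -0.93 for Id1, -1.70 for Id3 and 0.79 for Id2 on the log2 scale. For cycling progenitors less glutamatergic neurons it was -0.60 for Id1, -1.25 for Id3 and 0.93 for Id2. Of all genes, 7.01% and 10.9% were called for these differences. The marker sums that no gate used also differed less between classes in KO4 and KO5 than in WT2, WT3 and WT4, and their part in these differences was not tested.

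Over 5 libraries labelled WT, the library labelled WT1 stood apart from the others in Id2 of radial glia and astrocytes, at 3.51 UMIs per 10000 from 28 cells. It was the 1 such value among 24 groups of libraries examined, and chance gives about 1 in 20.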

How the results depend on the processing

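Values are log2 changes of KO over WT unless said otherwise, and the cause of a difference was not tested except where fewer libraries or genes were fitted. The calls of Id1 and Id3 in radial glia and of Id1, Id2 and Id3 in all glutamatergic neurons were also made by edgeR and DESeq2. Leaving out 1 library at a time gave -1.31 to -1.10 for Id2 in glutamatergic neurons, 0.13 to 0.18 for Id1 and 0.19 to 0.26 for Id3 there, and -0.83 to -0.74 for Id1, -0.49 to -0.36 for Id2, -1.71 to -1.24 for Id3 and -0.15 to 0.0049 for Id4 in radial glia, and -0.052 to 0.083 for Id4 in deep layer type neurons. The genes called, 225 in glutamatergic neurons and 386 in radial glia, ranged from 46 to 1136 and from 81 to 959. In glutamatergic neurons edgeR called 422 and DESeq2 444. A pseudocount of 0.25 gave 0.48 for Id1 and 0.59 for Id3 in glutamatergic neurons, no longer called. Without a filter on low values, Id1 (0.16), Id2 (-1.21) and Id3 (0.23) in glutamatergic neurons and Id1 (-0.78) and Id3 (-1.47) in radial glia were no longer called, with 85 and 31 genes called. With the library labelled WT5 added no gene was called by limma in either class (305 and 433 at an unadjusted p under 0.05), with Id1 at 0.10, Id2 at -1.05 and Id3 at 0.15 in glutamatergic neurons and Id1 at -0.56 and Id3 at -1.05 in radial glia. With all libraries as labelled, 0 genes were called (382 and 474 unadjusted). Id2 was then at -0.79, Id1 at -0.12, Id3 at -0.15 and Id4 at -0.028 in glutamatergic neurons, and Id1 at -0.52 and Id3 at -1.05 in radial glia. Id1 and Id3 turned negative in deep layer type neurons (-0.034, -0.12) and other glutamatergic neurons (-0.15, -0.20), and Id4 in deep layer type neurons (-0.056). Libraries of the same number in both genotypes did not vary together in every pair (correlations of -0.08 to 0.52 in glutamatergic neurons and -0.06 to 0.57 in radial glia). Libraries of different number had correlations of -0.45 to 0.53 and -0.46 to 0.54 in the same order. Whether the numbers mark pairs cannot be told from these values. With the replicate number as a block, 0 genes were called in either class (207 and 313 unadjusted). Under this block Id2 was at -0.63, Id1 at -0.17, Id3 at -0.22 and Id4 at -0.039 in glutamatergic neurons, Id1 at -0.48, Id3 at -1.02 and Id4 at 0.0029 in radial glia, Id1, Id3 and Id4 at -0.10, -0.27 and -0.098 in deep layer type neurons, and Id1 and Id3 at -0.21 and -0.26 in other glutamatergic neurons. Cells thinned to 1800 UMIs gave 0.16 for Id1 and 0.24 for Id3 in glutamatergic neurons, and cells under 4000 UMIs gave 0.15 and 0.19 there, -1.40 for Id3 in radial glia and -0.0059 for Id4 in deep layer type neurons, with 143 and 185 genes called. The haemoglobin limit of 0.1% gave -0.88 for Id2 and 0.033 for Id3 in glutamatergic neurons, -0.55 for Id1 and -0.43 for Id3 in radial glia, -0.11 for Id4 in deep layer type neurons, and 66 and 19 genes called. Clusters in place of gates (3 and 4 for neurons) gave -0.70 for Id2 and 0.088 for Id3 and 57 genes called in glutamatergic neurons and 0.098 for Id4 in radial glia. In cells of low Actb, with 12 cells of KO4 as the only KO radial glia, Id1 was at 0.043, Id3 at 0.78 and Id2 at -0.75 in radial glia, Id2 (-1.29) and Id3 (0.32) were not called in glutamatergic neurons, and 1 and 2192 genes were called there and in radial glia. edgeR gave -0.13 for Id4 in deep layer type neurons. Depth limits Id4, whose mean in WT radial glia was 0.19 UMIs per 10000.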
